A study of Mus musculus with 9 samples.

Results

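The 30 genes described here encode proteins by which T cells, natural killer (NK) cells, B cells and plasma cells are recognised. They were taken by symbol from a list and set among 27945 mouse genes with a count in liver RNA. They comprise 12 T cell genes, 10 genes of cytotoxic granules and NK cells, 4 B cell genes, 3 genes of immunoglobulin and its joining chain and Ptprc, which encodes CD45, the phosphatase on the surface of nearly all leukocytes. The libraries were made from polyadenylated liver RNA of mice and number 9, with 3 each in a treated, a model and a control group. The series title names gefitinib, an inhibitor of the epidermal growth factor receptor kinase, and liver damage. No label gives the agent of the treated group, a dose, a time, the age, sex or strain of the mice, or an allele or agent shared by the groups. Sample titles speak of liver cells and the source field of liver, so it is not known whether whole tissue was used. Separate animals are not stated either, so that p-values here rest on library-to-library spread alone, which may be technical.

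The liver holds many NK cells and resident T cells within its sinusoids, along with fewer B cells. T cells recognise peptides through a receptor whose CD3 chains pass the signal to the kinases Lck and Zap70, and CD4 or CD8 helps the receptor to bind. NK cells and cytotoxic T cells kill by releasing perforin and granzymes, whereas B cells signal through CD79 and, once they become plasma cells, secrete antibody built from heavy, light and joining chains.

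All 30 genes were in the deposited tables and 29 had enough counts to be tested. Eomes, a T-box transcription factor of NK and CD8 T cells, was the exception, with 0 to 10 counts per library. Library totals were 56440871 to 60665156 estimated counts, and levels between libraries are given as CPM, counts relative to the scaled total of each library. Among the 14460 genes with 1 transcript listed, counts of 1, 2, 3, 4 and 5 occurred 6341, 4104, 3346, 5947 and 1796 times, and counts of 7, 8 and 9 occurred 2008, 2807 and 1285 times. Beside the many counts of 1 there were thus local peaks at 4 and 8, and a single estimated count need not be a single read. In 25 of the 30 genes at least 1 library held fewer than 40 counts, and 6 had a count of 0 in some library. Such a 0 still allows 3 reads, which would be 12 counts, or 0.176 to 0.231 CPM depending on the library, if a read were worth 4 counts, for counting error only. Skeletal muscle transcripts summed to 100.1 to 137 CPM in treated livers and to 154 CPM in model library 1, against at most 1.06 CPM in the other 5 libraries, and whether this bears on any lymphocyte gene was not tested.

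Lymphocyte transcripts were scarce, and few of them differed between groups beyond the spread of the libraries. Treated livers had more Ptprc and less Zap70 RNA than control livers. No other gene of the list passed the test (edgeR quasi-likelihood, Benjamini-Hochberg adjusted p under 0.05 over 18113 genes). Those were 2 of 29 genes in treated against control livers, where 17.8% of all genes were called, 9.36% higher and 8.47% lower. In treated against model livers 0 of 29 genes were called, against 9.65% of all genes (5.21% higher and 4.44% lower), although 3 had an unadjusted p under 0.05 and DESeq2 called 2. In model against control livers 0 of 29 were called, against 1.12% of all genes (0.519% higher and 0.596% lower), 1 gene had an unadjusted p under 0.05, and DESeq2 also called 0. Each contrast shares a group of libraries with the others, so the contrasts are not independent.

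Among the 29 genes tested, the median log2 fold change was -0.10 in treated against control livers, -0.43 in treated against model livers and 0.37 in model against control livers. Over all genes these medians were -0.01, 0.01 and 0.00. Fold changes were above 0 for 14, 6 and 21 of the 29 genes in the same order of contrasts. The precision was low. The 95% interval of a gene reached a median of 1.39, 1.40 and 1.34 to either side on the log2 scale, and its upper end included a 2-fold higher level for 19, 15 and 24 genes. A 2-fold lower level lay within the interval for 21, 26 and 16 genes. The interval stayed within 2-fold for 1 gene in treated against control livers and for 0 genes in the other contrasts, so absence of a call does not show equal levels.

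**Figure D1:**
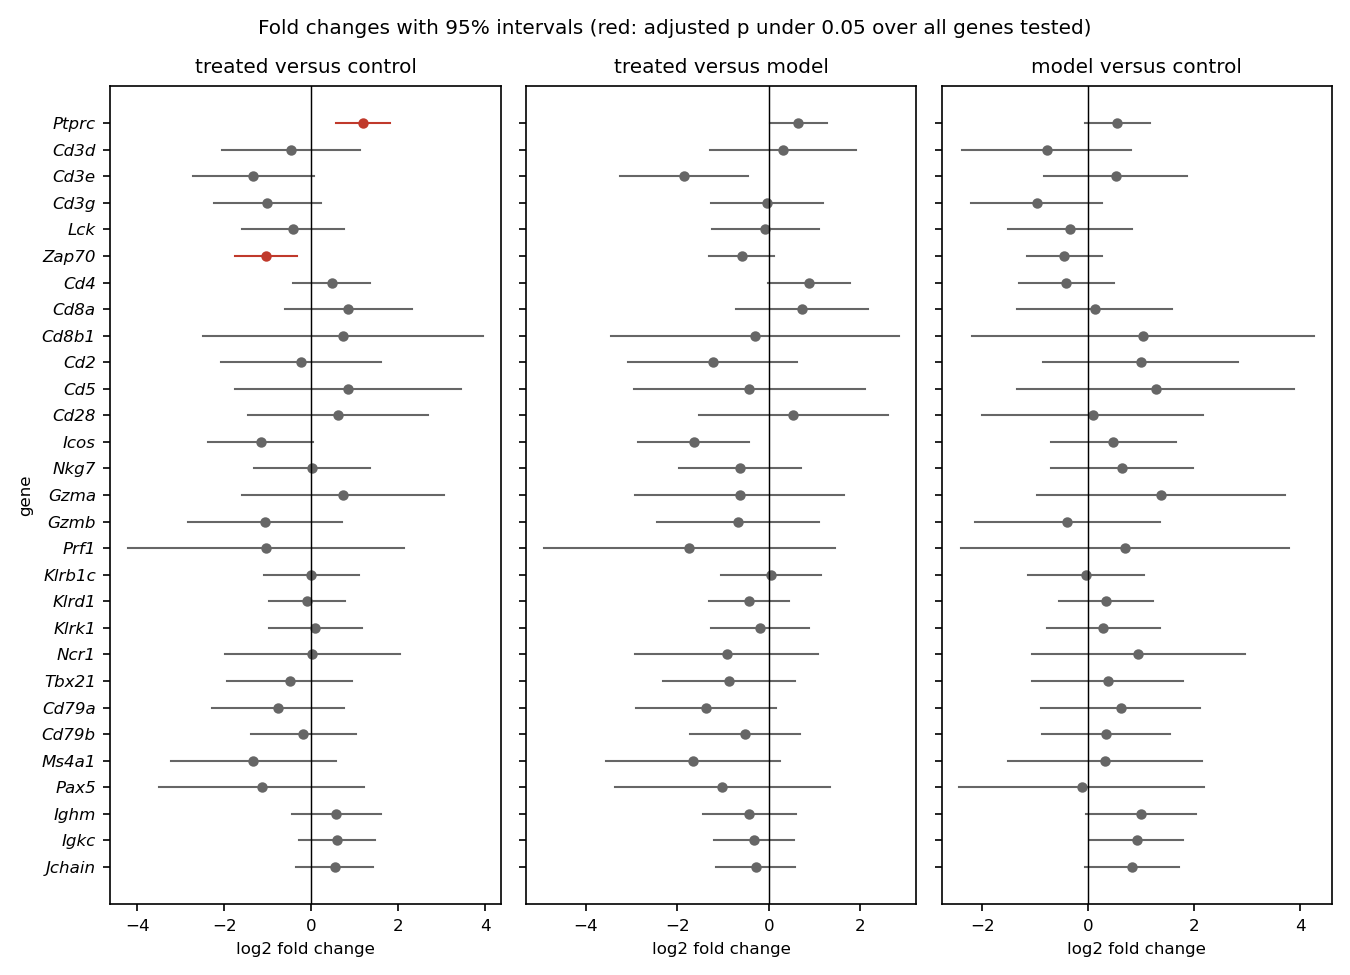
Log2 fold change (horizontal axis) of the 29 genes tested (rows), with 95% intervals as lines, in treated against control, treated against model and model against control livers. Ptprc and Zap70 in the left panel are the called genes, in red, and the other intervals span 0 apart from Ptprc, Cd3e and Icos in the middle panel and Igkc in the right panel.

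Levels per length, as FPKM (fragments per kilobase of transcript, relative to depth) averaged over the 9 libraries, were led by immunoglobulin genes. Igkc, the constant region of the kappa light chain, averaged 25.03 FPKM, and Ighm, the constant region of the mu heavy chain, 3.83 FPKM. Jchain, which joins IgM and IgA units, averaged 1.37 FPKM, followed by Zap70 at 1.24 FPKM, Nkg7 at 1.13 FPKM and Cd79b at 1.05 FPKM. The other 24 genes averaged below 1 FPKM, with Ptprc at 0.655, Lck at 0.413, Cd28 at 0.0426 and Eomes at 0.00973 FPKM. Counts per library ran from 268 to 1446 for Igkc and from 0 to 10 for Eomes, and 16 of the 30 genes reached 1 CPM in the mean of a group. The defining T cell markers Cd3d, Cd3e and Cd3g were present in all 9 libraries at no more than 2.48 CPM.

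**Figure D2:**
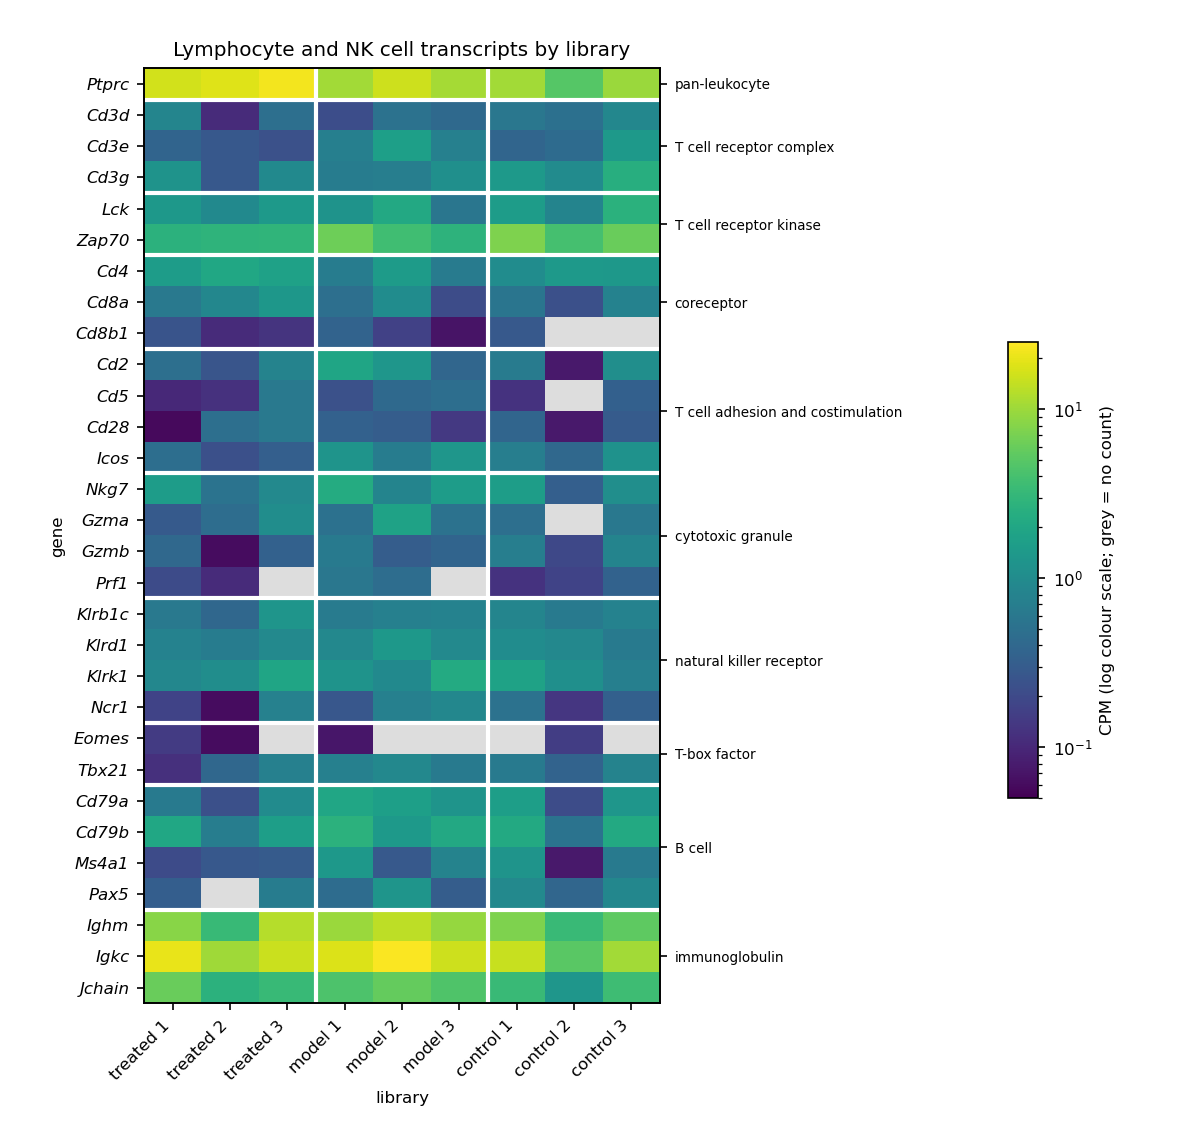
CPM of the 30 genes (rows, ordered by role) in the 9 libraries (columns) on a log colour scale, with grey for a count of 0. Igkc, Ptprc and Ighm are bright in each library. Control 2 is the lowest control library for 23 of the 30 genes, and treated 2 the lowest treated library for 17.

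Ptprc rose in treated livers. Its level was 16.5, 18.7 and 22.6 CPM in treated livers, 10.5, 15.6 and 10.8 CPM in model livers and 10.5, 4.81 and 9.89 CPM in control livers. Each treated library lay above each model and control library. Each model library lay above each control library in CPM, but model library 1 (10.48 CPM) and control library 1 (10.46 CPM) were nearly equal. In FPKM the order of these 2 libraries was the reverse (0.468 and 0.488). The means were 19.2 ± 3.11, 12.3 ± 2.83 and 8.38 ± 3.11 CPM in treated, model and control livers (SD, n = 3 each). The fold change between treated and control livers was 2.29 (95% interval 1.49 to 3.54), with a log2 value of 1.20 (SE 0.28) and an edgeR adjusted p of 0.0156. Between treated and model livers the log2 fold change was 0.65 (interval 0.03 to 1.26, edgeR adjusted p = 0.185), and between model and control livers 0.55 (interval -0.07 to 1.17, adjusted p = 0.424). Without treated library 3 the treated against control call was lost (log2 fold change 1.07, adjusted p = 0.0531), and it was kept in the other 17 alternatives. In bulk RNA, a change in the number of cells of a type and a change in RNA per cell cannot be told apart.

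CD45 is carried by myeloid cells as well as lymphocytes, and transcripts of both kinds were therefore set beside Ptprc. Of 30 further genes expressed across leukocytes, 20 rose and 0 fell in treated against control livers, where 9.36% of all genes rose, with a median log2 fold change of 1.16. In treated against model livers 10 rose and 0 fell, with a median of 0.70, and in model against control livers 1 rose and 0 fell, with a median of 0.36. Leaving out model library 1 or treated library 3 reduced the 10 to 6. Their sum was 378, 399 and 436 CPM in treated livers, 212, 239 and 199.6 CPM in model livers and 176, 144 and 199.7 CPM in control livers. Macrophage markers (Adgre1, Csf1r, Cd68, Lyz2 and Mpeg1) summed to 541 to 598 CPM in treated livers, 134 to 179 CPM in model livers and 92.9 to 116 CPM in control livers. None of the 5 was at 0 in any library, and 3 rose in treated against control livers. In treated against model livers 3 rose, where 5.21% of all genes did. In model against control livers 2 rose, where 0.519% of all genes did. Whether macrophage RNA accounts for the rise of Ptprc was not tested.

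The pan-leukocyte genes with the smallest p were Cd52, Evl, Laptm5 and Cd44. Cd52, a small glycosylated surface peptide, had 9.96, 11.5 and 12.2 CPM in treated livers, 3.42, 3.41 and 3.25 CPM in model livers and 1.95, 1.63 and 1.46 CPM in control livers. It rose 6.68-fold in treated against control livers (edgeR adjusted p = 2.27e-05), 3.34-fold in treated against model livers (adjusted p = 0.000532) and 2.00-fold in model against control livers (adjusted p = 0.0379). The model against control call did not hold in 12 of 18 alternatives, and of the 9 fits without 1 library it held in the 1 without control library 1. Cd44, the receptor for hyaluronan, had 16.3, 22.7 and 21.7 CPM in treated livers, 3.85, 6.24 and 4.79 CPM in model livers and 3.66, 2.06 and 4.94 CPM in control livers. Treated libraries were above all others for both genes. Laptm5, a lysosomal membrane protein of leukocytes, rose 3.401-fold in treated against control livers (edgeR adjusted p = 0.000442), and Evl, an actin regulator, 6.78-fold (adjusted p = 0.000256).

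**Figure D3:**
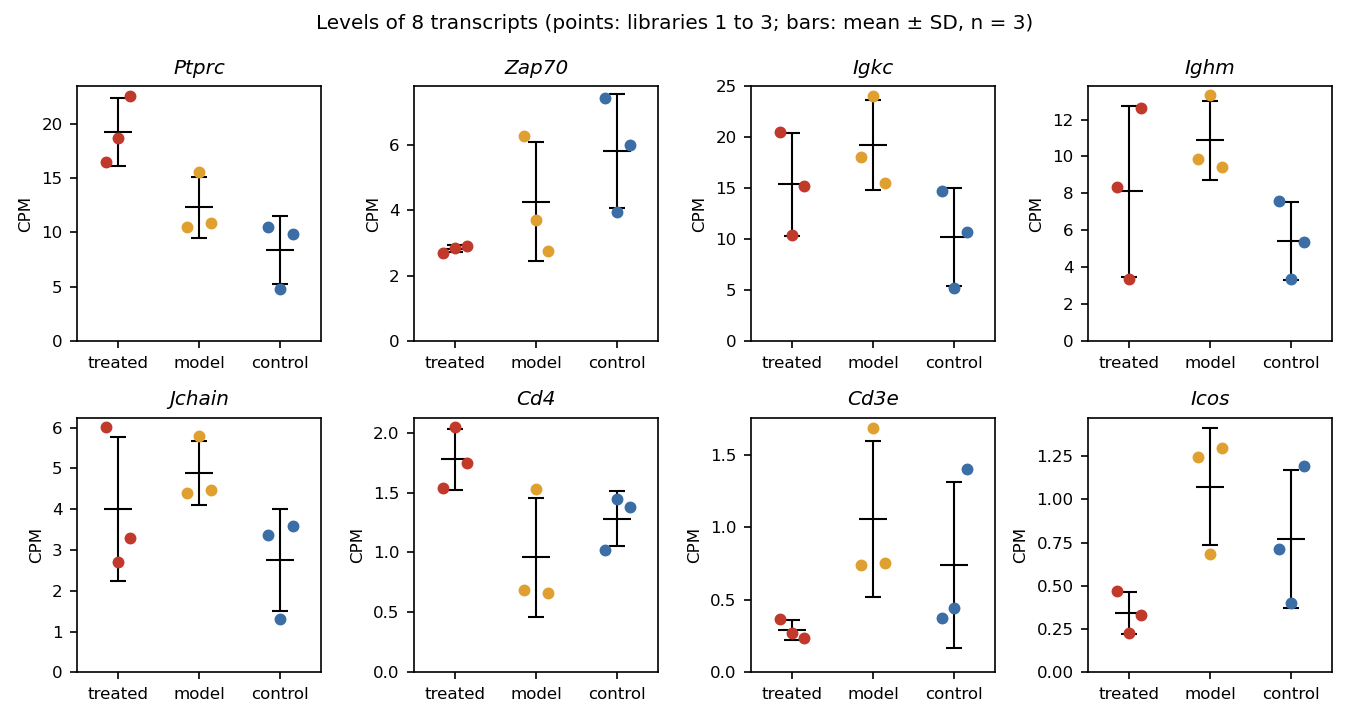
CPM (vertical axes, each from 0) of 8 genes in treated, model and control livers, with points for the 3 libraries of a group and bars for mean ± SD. Treated points lie highest for Ptprc, with means of 19.2 CPM in treated and 8.38 CPM in control livers, and below the control points for Zap70, with means of 2.82 and 5.80 CPM.

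Zap70, the kinase that docks on the phosphorylated CD3 chains of T cells and also serves NK cells, fell in treated livers. It had 2.70, 2.86 and 2.90 CPM in treated livers, 6.29, 3.71 and 2.76 CPM in model livers and 7.44, 3.96 and 6.01 CPM in control livers. Treated libraries lay close together and below each control library, while model libraries spanned the gap between them. The level averaged 2.82 ± 0.104 CPM in treated livers and 5.80 ± 1.75 CPM in control livers (SD, n = 3 each). It was 2.06-fold lower in treated livers, with a log2 fold change of -1.04 (SE 0.33, 95% interval -1.76 to -0.33) and an edgeR adjusted p of 0.0481. The log2 fold change was -0.59 between treated and model livers (edgeR adjusted p = 0.298) and -0.45 between model and control livers (adjusted p = 0.608). The call lay close to the threshold and was lost in 10 of 18 alternatives, among them leaving out control library 1 or 3, model library 2 or any treated library. The log2 fold change ran from -1.26 to -0.72 over the alternatives, and adjusted p reached 0.157 without control library 1.

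Counts of Zap70 were assigned to 2 transcripts that share their 3′ part. The coding transcript with 13 exons starts at chr1:36761798 and took 1327 of the 2229 counts, and a form of 6 exons annotated as a retained intron starts at chr1:36778984 and took 902. The 6-exon form held 167, 0 and 0 counts in treated livers, 0, 223 and 0 in model livers and 416, 0 and 96 in control livers. In 7 of the 9 libraries the whole count thus fell on 1 of the forms, while the other form was listed at 0. The gene total, on which the test rests, moved less than either form. Zap70 overlaps a gene on the opposite strand and Ptprc 1 on its own strand, and since the strand setting is not known, reads of such pairs cannot be told apart.

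For Ptprc, 7089 of 7282 counts were assigned to a transcript of 26 exons annotated as a retained intron (chr1:138062861-138116441, minus strand). The coding transcript with most counts, of 33 exons, starts at chr1:138175267 and held 38. Promoter windows are shown for the called genes, 1 for Ptprc at the 5′ end of the gene and 2 for Zap70 at the starts of the transcripts that held its counts. The Ptprc form with most counts starts inside the gene, at chr1:138116441, and the window printed does not lie before that start. Each window holds the 250 bases before a start in RefSeq (GRCm38.p6), read 5′ to 3′ on the gene's strand. Capitals mark GGAAGT, a core of ETS factors, and CAGGTG, an E-box of E proteins, on either strand, so that ACTTCC is GGAAGT of the opposite strand.
Ptprc, chr1:138175306-138175555, minus strand: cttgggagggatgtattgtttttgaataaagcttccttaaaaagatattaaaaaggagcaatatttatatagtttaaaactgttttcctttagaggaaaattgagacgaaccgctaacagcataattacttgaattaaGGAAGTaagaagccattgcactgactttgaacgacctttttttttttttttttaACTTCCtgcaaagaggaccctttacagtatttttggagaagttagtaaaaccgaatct
Zap70, 13-exon start, chr1:36761548-36761797, plus strand: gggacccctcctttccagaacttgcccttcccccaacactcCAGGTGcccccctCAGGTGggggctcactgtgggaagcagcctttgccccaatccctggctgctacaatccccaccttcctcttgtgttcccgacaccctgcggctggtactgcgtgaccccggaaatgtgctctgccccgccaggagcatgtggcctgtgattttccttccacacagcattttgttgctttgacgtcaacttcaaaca
Zap70, 6-exon start, chr1:36778734-36778983, plus strand: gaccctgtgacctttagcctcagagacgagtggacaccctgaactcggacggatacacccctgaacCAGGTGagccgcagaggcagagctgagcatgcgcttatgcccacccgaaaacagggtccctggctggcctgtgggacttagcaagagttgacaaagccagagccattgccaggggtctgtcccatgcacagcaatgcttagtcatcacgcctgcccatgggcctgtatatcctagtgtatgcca
The Ptprc window held GGAAGT 2 times, and the Zap70 windows held CAGGTG 2 times and 1 time. RefSeq has another start for each gene, not printed here, with GGAAGT and TGTGGT 1 time each for Zap70 (chr1:36764265-36764514) and GGAAGT 1 time for Ptprc (chr1:138175127-138175376). GGAAGT occurred in 12 of 25 windows of the 20 members that matched a RefSeq window and in 19.7% of 32851 windows of all genes, and CAGGTG in 10 of 25 and in 17.2%. TGTGGT, a RUNX core, occurred in 10 of 25 windows and in 14.0% of all, and in none of the 3 windows printed. The motifs do not overlap in these windows, windows of a gene can share bases, and a match describes letters only.

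The other T cell genes were lower than Zap70 in FPKM, the level per length, and none of them passed the edgeR test in any contrast. Cd3e, a signalling chain of the receptor complex, had 0.367, 0.275 and 0.236 CPM in treated livers, 0.738, 1.68 and 0.752 CPM in model livers and 0.375, 0.442 and 1.40 CPM in control livers. Treated libraries lay below each model library and, in CPM, below each control library. The gap to the control group was small, at 0.367 CPM in treated library 1 and 0.375 CPM in control library 1. In FPKM the order of these 2 libraries was the reverse (0.0840 and 0.0778), so that treated and control libraries overlapped. Its log2 fold change was -1.85 between treated and model livers (95% interval -3.24 to -0.45, edgeR adjusted p = 0.0969, DESeq2 adjusted p = 0.0409) and -1.33 between treated and control livers (edgeR adjusted p = 0.175). Icos, a costimulator of activated T cells, had 0.469, 0.229 and 0.331 CPM in treated livers, 1.24, 0.683 and 1.29 CPM in model livers and 0.715, 0.404 and 1.19 CPM in control livers. Treated libraries lay below each model library, and they overlapped the control libraries. Its log2 fold change between treated and model livers was -1.64 (95% interval -2.85 to -0.42, edgeR adjusted p = 0.0907, DESeq2 adjusted p = 0.0371). These 2 genes held 15 to 101 counts per library.

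Cd4, the coreceptor of helper T cells, which some mouse dendritic cells also carry, had 1.54, 2.05 and 1.75 CPM in treated livers, 0.684, 1.53 and 0.665 CPM in model livers and 1.02, 1.44 and 1.38 CPM in control livers. Treated libraries lay above each model and control library, with log2 fold changes of 0.89 against model (edgeR adjusted p = 0.211) and 0.47 against control (adjusted p = 0.476). Cd3g, another receptor chain, had 1.22, 0.275 and 0.944 CPM in treated livers, 0.684, 0.716 and 1.10 CPM in model livers and 1.43, 1.000 and 2.48 CPM in control livers, and its groups overlapped. Lck, the kinase bound to CD4 and CD8, had 1.38, 0.947 and 1.43 CPM in treated livers, 1.22, 2.15 and 0.577 CPM in model livers and 1.55, 0.827 and 2.65 CPM in control livers. Cd2, an adhesion receptor of T and NK cells, had 0.484, 0.260 and 0.803 CPM in treated livers, 1.95, 1.299 and 0.385 CPM in model livers and 0.661, 0.0769 and 1.08 CPM in control livers. Groups overlapped in each contrast for both genes.

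The remaining T cell genes stayed below 1 CPM in the mean of each group. Cd3d held 7 to 57 counts per library and Cd8a, the alpha chain of the CD8 coreceptor, 12 to 85. Cd8b1, its beta chain, held 0 counts in control libraries 2 and 3 and at most 20 elsewhere. Cd5, a negative regulator of receptor signalling, held 0 to 39 counts, and Cd28, the main costimulator of naive T cells, 4 to 39. Across these 5 genes the log2 fold changes ran from -0.47 to 0.85 in treated against control livers, with edgeR adjusted p of 0.428 or more. They ran from -0.42 to 0.73 in treated against model livers and from -0.78 to 1.27 in model against control livers.

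Genes of cytotoxic granules and NK receptors did not pass the test in any contrast. Nkg7, a granule membrane protein that promotes degranulation, had 1.55, 0.535 and 0.929 CPM in treated livers, 2.27, 0.832 and 1.56 CPM in model livers and 1.57, 0.327 and 1.08 CPM in control livers. Within each group the lowest and highest library differed by more than the group means. Klrd1, the CD94 chain of NK receptors, had 0.777, 0.687 and 0.929 CPM in treated livers, 0.919, 1.38 and 0.927 CPM in model livers and 1.02, 0.904 and 0.634 CPM in control livers. Its interval in treated against control livers, -0.98 to 0.79 on the log2 scale, was the 1 that stayed within 2-fold among all members and contrasts. Klrk1, the activating receptor NKG2D, had 0.895, 1.05 and 1.92 CPM in treated livers, 1.22, 0.949 and 2.24 CPM in model livers and 1.79, 1.10 and 0.728 CPM in control livers, with treated and control libraries intermixed. Their edgeR adjusted p in treated against control livers were 0.992, 0.912 and 0.927 for Nkg7, Klrd1 and Klrk1.

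The remaining cytotoxic and NK genes held at most 107 counts per library. Gzma, which encodes granzyme A, held 0 counts in control library 2 and 107 in model library 2. Gzmb, for granzyme B, held 4 to 44 counts, and Prf1, for the pore-forming protein perforin, held 0 in treated library 3 and model library 3 and at most 33 elsewhere. Klrb1c, the NK1.1 antigen in strains that carry it, held 26 to 81 counts, Ncr1, the receptor NKp46, 4 to 51 and Tbx21, the factor T-bet, 8 to 55. Eomes, untested, was listed at 0 in 5 of the 9 libraries. The 6 tested genes of this group had log2 fold changes of -1.07 to 0.73 in treated against control livers, with edgeR adjusted p of 0.410 or more. Their log2 fold changes were -1.74 to 0.05 in treated against model livers and -0.40 to 1.37 in model against control livers.

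B cell receptor genes did not pass the test either. Cd79a, a signalling chain of the receptor, had 0.645, 0.229 and 1.01 CPM in treated livers, 1.96, 1.66 and 1.24 CPM in model livers and 1.64, 0.212 and 1.32 CPM in control livers. Treated libraries lay below each model library (log2 fold change -1.37, 95% interval -2.90 to 0.16, edgeR adjusted p = 0.260), whereas control library 2 was lowest of all 9. Cd79b, its partner chain, had 2.01, 0.703 and 1.64 CPM in treated livers, 2.72, 1.40 and 2.13 CPM in model livers and 2.18, 0.538 and 2.20 CPM in control livers. Groups overlapped in each contrast. Ms4a1, the CD20 antigen, held 4 to 76 counts per library, and Pax5, the transcription factor of B cell identity, 0 to 76. For Ms4a1 the log2 fold change was -1.65 between treated and model livers (edgeR adjusted p = 0.278) and for Pax5 -1.02 (adjusted p = 0.627).

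Transcripts of antibody chains were higher in each model library than in each control library for all 3 genes, but not past the test. The share of all genes with such a separation was not counted. Control library 2 was the lowest of its group for all 3, so the genes are not separate observations. Igkc had 20.5, 10.4 and 15.2 CPM in treated livers, 18.0, 24.1 and 15.5 CPM in model livers and 14.8, 5.15 and 10.7 CPM in control livers. The model against control fold was 1.88 (95% interval 1.02 to 3.47, unadjusted p = 0.0439, edgeR adjusted p = 0.345). Ighm had 8.36, 3.33 and 12.6 CPM in treated livers, 9.89, 13.3 and 9.41 CPM in model livers and 7.596, 3.36 and 5.36 CPM in control livers. This gave a model against control fold of 2.00 (interval 0.979 to 4.08, edgeR adjusted p = 0.377). Jchain had 6.01, 2.70 and 3.29 CPM in treated livers, 4.39, 5.79 and 4.46 CPM in model livers and 3.36, 1.31 and 3.60 CPM in control livers, and the fold was 1.77 (edgeR adjusted p = 0.398). Treated libraries overlapped both other groups for each of the 3 genes. In treated against control livers their edgeR adjusted p were 0.345, 0.442 and 0.404 for Igkc, Ighm and Jchain.

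Ighm counts fell on a transcript of 6 exons, which reaches further 3′ and took 2825 of 4364 counts, and on 1 of 4 exons, which took 1539. The 4-exon form held 181, 46 and 319 counts in treated livers, 174, 411 and 120 in model livers and 218, 39 and 31 in control livers. Its part of the gene's counts varied widely among libraries of the same group, so no difference in form between groups can be read.

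The spread of the list followed single libraries. Control library 2 had the lowest level among the control libraries for 23 of the 30 genes. It was lowest for 32.7% of all genes tested. For Cd8b1 it shared a count of 0 with control library 3. For Eomes it held 8 counts, against 0 in control libraries 1 and 3. Treated library 2 was lowest among treated libraries for 17 of the 30 genes, against 32.1% of all genes. B cell members (Cd79a, Cd79b, Ms4a1 and Pax5) summed to 3.18, 1.21 and 3.62 CPM in treated livers, 6.502, 4.61 and 4.50 CPM in model livers and 5.99, 1.21 and 5.08 CPM in control livers. The 3 immunoglobulin members summed to 34.9, 16.5 and 31.1 CPM in treated livers, 32.3, 43.2 and 29.4 CPM in model livers and 25.7, 9.83 and 19.6 CPM in control livers. In both sums, library 2 was the lowest of the treated and of the control group and not of the model group.

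For the 12 T cell members the sums were 10.02, 8.60 and 11.6 CPM in treated livers, 14.4, 14.2 and 8.85 CPM in model livers and 15.1, 8.96 and 18.5 CPM in control livers. The 10 cytotoxic and NK members summed to 5.19, 3.82 and 7.98 CPM in treated livers, 7.91, 8.14 and 7.94 CPM in model livers and 7.69, 3.999 and 6.14 CPM in control livers. Groups overlapped in both sums between treated and control livers. Set against Ptprc in the same library, the cytotoxic and NK sum was 0.316, 0.204 and 0.353 times Ptprc in treated livers, 0.754, 0.524 and 0.732 times in model livers and 0.735, 0.832 and 0.621 times in control livers. The T cell sum was 0.609, 0.460 and 0.512 times Ptprc in treated livers, 1.38, 0.913 and 0.816 times in model livers and 1.45, 1.86 and 1.87 times in control livers. Both ratios were lower in each treated library than in each control library. Ptprc, called higher in treated livers, is their denominator, so this is not a result separate from its rise. The B cell sum was 0.193, 0.0646 and 0.160 times Ptprc in treated livers, 0.620, 0.297 and 0.415 times in model livers and 0.573, 0.252 and 0.513 times in control livers. This ratio, with the same denominator, was lower in each treated library than in each control library, while the B cell sums overlapped. For the immunoglobulin members the ratios overlapped between treated and control livers, at 2.12, 0.881 and 1.38 in treated livers, 3.08, 2.78 and 2.71 in model livers and 2.46, 2.04 and 1.98 in control livers.

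**Figure D4:**
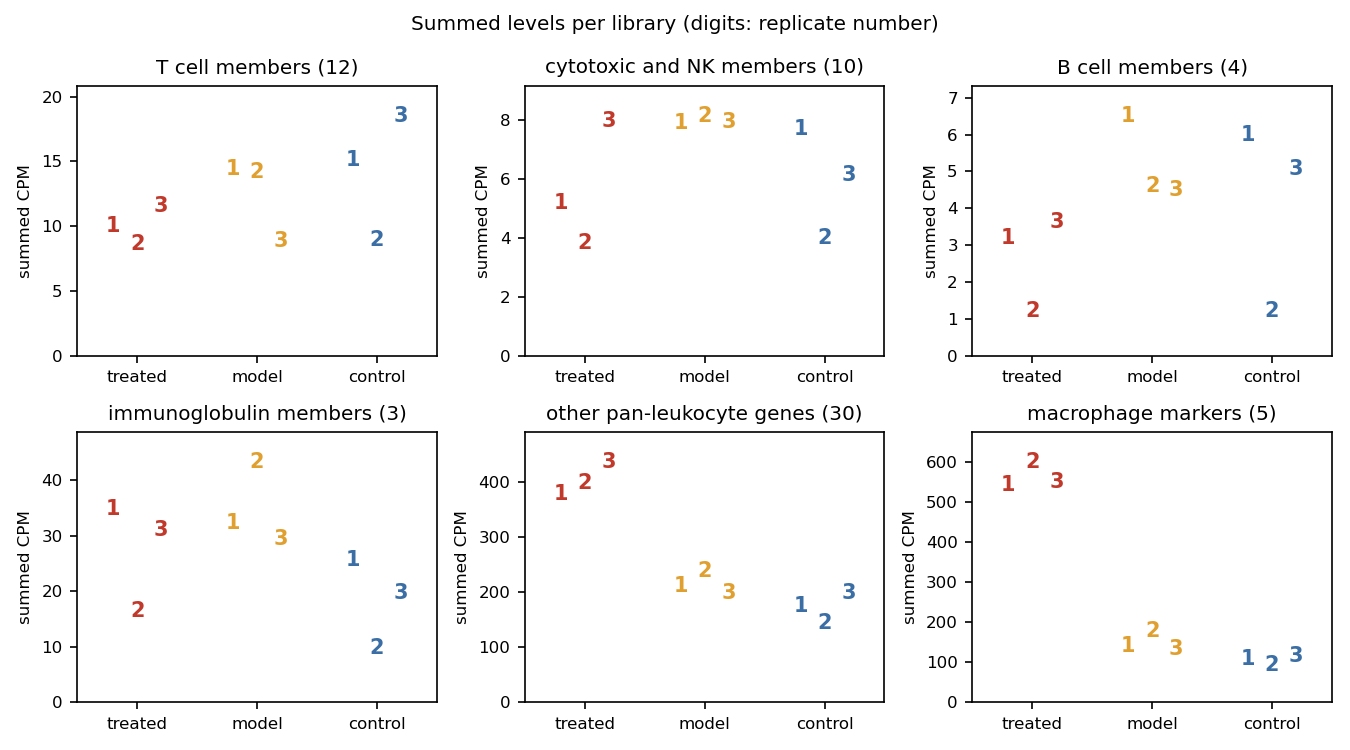
Summed CPM (vertical axes, each from 0) of 4 groups of lymphocyte genes, of 30 other pan-leukocyte genes and of 5 macrophage markers in treated, model and control livers, with each library drawn as its replicate number. Macrophage markers separate treated livers (541 to 598 CPM) from control livers (92.9 to 116 CPM), and the 4 sums of listed lymphocyte genes overlap between these groups.

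Further genes of the same cell types came from companion lists. Beside the counts of this and the next lists, 9.36% of all genes were called higher and 8.47% lower in treated against control livers. In treated against model livers these shares were 5.21% and 4.44%, and in model against control livers 0.519% and 0.596%. Of 27 further T cell genes tested, 2 rose and 0 fell in treated against control livers, with a median log2 fold change of 0.15. In treated against model livers 1 rose and 0 fell, with a median of -0.30, and in model against control livers 0 were called by edgeR or DESeq2, with 2 at an unadjusted p under 0.05. Il7r, the interleukin 7 receptor, which myeloid cells can also express, had 9.50, 11.8 and 6.89 CPM in treated livers, 0.883, 0.816 and 0.315 CPM in model livers and 0.340, 0.308 and 0.541 CPM in control livers. It rose 23.6-fold in treated against control livers (edgeR adjusted p = 0.000103) and 13.97-fold against model livers (adjusted p = 0.000521), and it remained called in each alternative. Tcf7, a transcription factor of naive and memory T cells, had 4.88, 7.68 and 5.12 CPM in treated livers and 3.396, 2.17 and 3.396 CPM in control livers. It rose 1.97-fold (edgeR adjusted p = 0.0249) and lost its call in 4 alternatives, among them leaving out control library 2 or treated library 2. All 30 genes of this T cell list summed to 29.2, 32.3 and 31.7 CPM in treated livers, 23.1, 26.3 and 21.4 CPM in model livers and 17.7, 12.4 and 21.9 CPM in control livers, so that treated libraries lay above the others. Il7r made this separation, since with its values taken out the treated libraries overlapped both other groups. Relative to Ptprc the sum of all 30 genes overlapped between treated livers (1.78, 1.73 and 1.40) and control livers (1.69, 2.58 and 2.22).

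Of 23 further NK and innate lymphoid genes tested, 2 rose and 2 fell in treated against control livers (median log2 fold change 0.12). In treated against model livers 2 rose and 0 fell (median -0.27), and in model against control livers 0 rose and 1 fell (median 0.38). The genes that rose, Tyrobp and Fcer1g, encode signalling adaptors that macrophages share with NK cells. Tyrobp had 23.8, 42.2 and 26.3 CPM in treated livers, 8.30, 10.7 and 6.98 CPM in model livers and 5.86, 4.33 and 8.12 CPM in control livers, which made it 5.04-fold higher in treated than in control livers (edgeR adjusted p = 0.000677). Fcer1g rose 3.71-fold in the same contrast (adjusted p = 0.000137). The genes that fell in treated against control livers are not restricted to lymphocytes. Rora, a nuclear receptor of innate lymphoid cells and hepatocytes, was 1.28-fold lower in treated livers (edgeR adjusted p = 0.0409, lost in 12 alternatives), and 1.56-fold lower in model than in control livers (adjusted p = 0.0206, lost in 6). Itga1, an integrin chain of resident NK cells and of endothelium, was 1.43-fold lower in treated than in control livers (edgeR adjusted p = 0.0195, lost in 6). Without treated library 1 or treated library 2 the 4 calls of this list became 2. The 32 genes of the list, Tyrobp, Fcer1g and Rora among them, summed to 113, 123 and 121 CPM in treated livers. The sums were 81.2, 86.6 and 86.8 CPM in model livers and 97.2, 97.4 and 103 CPM in control livers, so that treated libraries lay above the others. The separation from control livers rested on Tyrobp, since with its values taken out treated and control libraries overlapped. Treated libraries then still lay above the model libraries.

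Of 34 further B and plasma cell genes tested, 4 rose and 0 fell in treated against control livers (median log2 fold change -0.08), where 9.36% of all genes rose. In treated against model livers 2 rose and 1 fell (median -0.35), and in model against control livers 1 rose and 0 fell (median 0.59). Cd74, the invariant chain of MHC class II, which all antigen-presenting cells make, had 115, 129.8 and 166 CPM in treated livers, 78.0, 66.6 and 57.1 CPM in model livers and 49.5, 30.6 and 51.6 CPM in control livers. It rose 3.13-fold in treated against control livers (edgeR adjusted p = 0.000903). Cd72, a receptor of B cells and macrophages, had 5.98, 4.86 and 5.70 CPM in treated livers, 3.24, 4.03 and 2.45 CPM in model livers and 1.18, 0.731 and 1.27 CPM in control livers, with folds of 5.19 in treated against control livers (edgeR adjusted p = 0.000480) and 3.05 in model against control livers (adjusted p = 0.0306, lost in 9 alternatives). Blnk, an adaptor of the B cell receptor, rose 3.30-fold in treated against control livers (edgeR adjusted p = 0.0102). Cd22, a B cell lectin named after its value was seen, rose 2.38-fold in that contrast (adjusted p = 0.0443), and this call was lost in 11 of 18 alternatives, such as those without control library 2 or 3 or without any 1 of the model or treated libraries. Xbp1, a secretory factor of plasma cells and hepatocytes, had 198, 170.1 and 174 CPM in treated livers, 305, 264 and 259 CPM in model livers and 216, 191 and 207 CPM in control livers, and it was 1.53-fold lower in treated than in model livers (edgeR adjusted p = 0.00726). Without model library 2 the 3 calls of treated against model livers became 1.

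Signals that draw or sustain lymphocytes included genes that rose and genes that fell. Of 28 chemoattractants, cytokines and ligands tested, 7 rose and 4 fell in treated against control livers (median log2 fold change 0.90) and likewise 7 and 4 in treated against model livers (median 0.63). The 11 calls of treated against model livers became 5 without treated library 3, 6 without model library 1, model library 3 or treated library 1, and 7 without model library 2 or treated library 2. Those of treated against control livers became 8 to 12 when each library was left out and 6 without control library 2 and treated library 2 together. None was called in model against control livers by edgeR (median 0.09, 4 at an unadjusted p under 0.05), and DESeq2 called 1, Cxcl12, lower. Cxcl12, which retains lymphocytes through CXCR4, had 178, 176 and 167 CPM in treated livers, 319, 264 and 299 CPM in model livers and 391, 408 and 349 CPM in control livers. It was 2.20-fold lower in treated than in control livers (edgeR adjusted p = 0.000108). Il15ra, which presents the NK cell survival factor interleukin 15, had 31.0, 34.2 and 32.4 CPM in treated livers, 58.4, 58.6 and 58.6 CPM in model livers and 63.2, 51.0 and 54.9 CPM in control livers, and it was 1.73-fold lower in treated than in control livers (edgeR adjusted p = 0.000431). Cxcl10, a ligand of CXCR3 on activated T and NK cells, had 22.7, 20.5 and 6.86 CPM in treated livers, 3.24, 4.50 and 1.80 CPM in model livers and 2.02, 2.08 and 2.33 CPM in control livers. It rose 7.78-fold in treated against control livers (edgeR adjusted p = 0.00279). Pvr, a ligand of NK and T cell receptors, rose 2.07-fold in the same contrast (edgeR adjusted p = 0.00438).

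**Figure D5:**
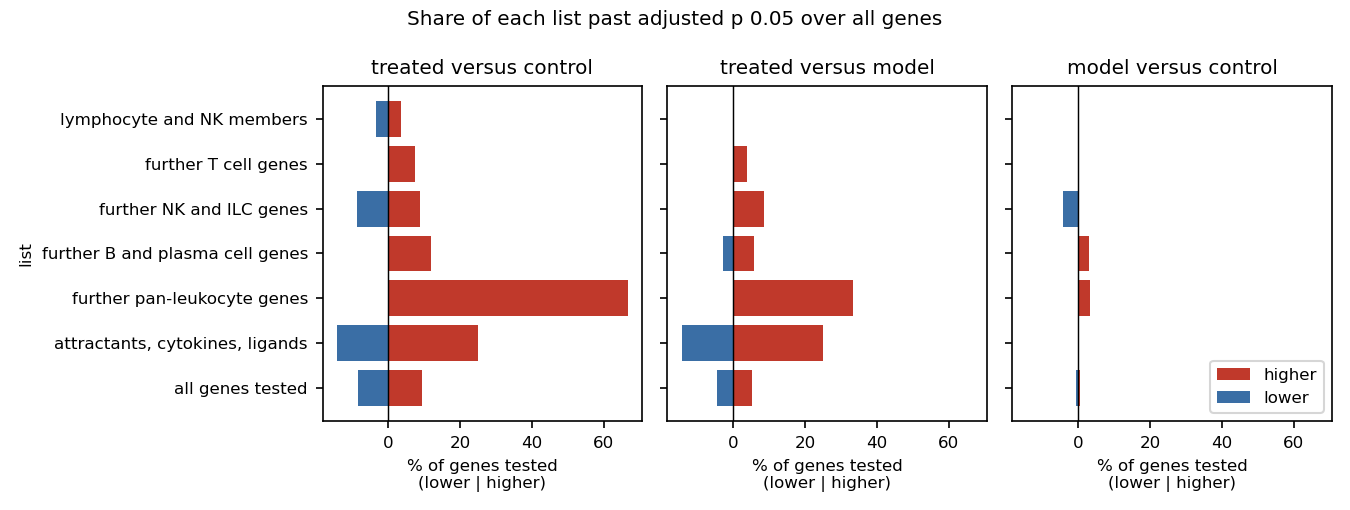
Percentage of genes tested in each list (rows) that were called higher (red, to the right) or lower (blue, to the left) in the 3 contrasts. The bar of the other pan-leukocyte genes in treated against control livers, 20 of 30, is the longest of those drawn, and the bars of the lymphocyte and NK list are 1 of 29 to each side in that contrast and empty in the others.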

How the data were processed

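The authors deposited estimated counts and FPKM per gene and transcript, per the file headers. HISAT2, an aligner, is the tool listed in the submitters' processing notes, and no source used here names the quantifier, its strand setting or the annotation. The deposited count equalled FPKM times length times 1 constant per library, within 1 count, in at least 99.15% of transcripts, so counts are estimates. Being whole numbers, they were not rounded further. Coordinates are GRCm38, as 26 of 30 members had the same start and end in GENCODE M21, and 24 overlapped no other gene. Gene counts were tested with edgeR 4.0.16 (R 4.3.3; TMM, robust quasi-likelihood, filterByExpr with minimum count 10 and total 15) in 1 fit of 9 libraries, after a test on simulated counts. Alternatives used DESeq2 1.42.0 and limma 3.58.1. Members averaging 1 CPM in a group, or called, are given per library, and up to 4 called genes with the smallest p per companion list are named. Members and lists were chosen with earlier results of these data known.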

Additional observations from a re-analysis of the deposited data

How the results depend on the processing

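In treated against model livers the 0 became 2 under DESeq2 (Cd3e and Icos). In treated against control livers the 2 became 1 with DESeq2-type size factors, 1 on log2(FPKM + 0.1), 1 with the replicate block, 1 without control library 2 and treated library 2 together (an alternative chosen after seeing the data), and 0 (without treated library 3) to 2 when each library was left out. Over all genes, model against control gave 202 calls, 866 with DESeq2, 120 with the replicate block, 54 (without model library 2) to 213 when each library was left out and 49 without both libraries 2. Treated against model gave 1748, 2750 with DESeq2, 882 (without model library 1) to 1660 when each library was left out and 1152 without both libraries 2. Treated against control gave 3231, and 1779 without both libraries 2. Pan-leukocyte calls were 6 to 14 in treated against model livers and 14 to 21 in treated against control livers when each library was left out. The cause of these changes was not tested.

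On the FPKM scale 1664 genes were called higher and 401 lower in treated against model livers (943 and 805 from counts), and 3278 higher and 858 lower in treated against control livers (1696 and 1535 from counts). The median of all genes shifted by 0.15 and 0.18 (log2) there, and the members' median in treated against control livers was 0.12 in place of -0.10. Among uncalled members, 9, 7 and 11 changed sign under some alternative in model against control, treated against model and treated against control livers. Same-numbered libraries correlated by at most 0.0716 in their deviations, and not every library correlated best with its own number, so the block is an alternative only.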

Other observations

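Markers of other liver cells differed in level between the same libraries. The 4 endothelial markers (Pecam1, Stab2, Cdh5 and Kdr) summed to 38.5 to 50.8 CPM in treated livers, 63.0 to 74.3 CPM in model livers and 159 to 188 CPM in control livers. All 4 fell in treated against control livers, 2 fell in treated against model livers and 3 fell in model against control livers (edgeR quasi-likelihood, adjusted p under 0.05). Stab2, a scavenger receptor of the sinusoid lining, was 3.68-fold lower in treated than in control livers (edgeR adjusted p = 3.05e-05), and Kdr, a receptor for vascular endothelial growth factor, 7.27-fold lower (adjusted p = 0.000582). Of the macrophage markers, Cd68, a lysosomal glycoprotein, had 46.2, 59.1 and 57.6 CPM in treated livers, 12.9, 20.0 and 11.95 CPM in model livers and 7.65, 7.25 and 7.56 CPM in control livers, and Mpeg1, the pore-forming perforin-2, had 207, 156 and 187 CPM in treated livers, 53.9, 47.1 and 55.4 CPM in model livers and 28.3, 27.2 and 31.0 CPM in control livers.

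The 5 neutrophil markers summed to 22.3, 9.79 and 108 CPM in treated livers, 12.03, 23.2 and 21.4 CPM in model livers and 3.32, 5.88 and 3.28 CPM in control livers, and 2 of the 4 tested rose in treated against control livers. Kupffer cell markers summed to 185 to 374 CPM in treated livers, 212 to 256 CPM in model livers and 134 to 230 CPM in control livers, with 1 of 5 called, Marco, a scavenger receptor. Dendritic cell markers stayed at 2.02 to 3.12 CPM in treated livers, 2.40 to 3.43 CPM in model livers and 2.63 to 4.98 CPM in control livers, with 0 of 5 tested called by edgeR and 1 at an unadjusted p under 0.05 in treated against control livers. Plasma cell markers other than immunoglobulin, Jchain among them, summed to 125 to 149 CPM in treated livers, 138 to 148 CPM in model livers and 124 to 137 CPM in control livers, with 0 of 4 tested called and 0 at an unadjusted p under 0.05. Jchain held 1.31 to 6.01 CPM of these sums, which thus rest on the other markers (Mzb1, Sdc1, Tnfrsf17 and Derl3), and whether their RNA came from plasma cells was not tested. Erythroid markers summed to 346 to 584 CPM in treated livers, 859 to 1979 CPM in model livers and 652 to 948 CPM in control livers, with 1 of 5 called lower in treated against control and 1 of 5 in treated against model livers. Hepatocyte markers summed to 63444 to 75537 CPM in treated livers, 77925 to 81758 CPM in model livers and 74529 to 86893 CPM in control livers, with 1 of 5 called lower in treated against control and 1 of 5 called higher in treated against model livers. Mast cell and basophil markers reached at most 0.488 CPM in any library and were not tested. What part these cells have in the levels of the lymphocyte genes was not tested.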
